A study of Mus musculus with 2 samples.

Results

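The AP-1 immediate early factors described here are 8 genes of the deposited table of 53465 mouse genes, taken by gene name: 4 FOS subunits (Fos, Fosb, Fosl1 and Fosl2), 3 JUN subunits (Jun, Junb and Jund), and Atf3. All 8 are protein-coding and all 8 had values in both libraries. The NeuroD1 library came from C57Bl/6 mice of the tie2-cre genotype treated with NeuroD1, a transcription factor of neuronal differentiation. The GFP library came from mice of the same strain and genotype treated with GFP, a fluorescent protein that serves as a control. Each treatment has 1 library, for which endothelial cells of 3 mice were collected and 10000 cells lysed. The Tie2 promoter that drives Cre in both groups is active in endothelial cells and also in some blood cells. The series title places the work in gene therapy after ischemic stroke, while age, vector, dose, timing and any stroke in these mice are not stated in the labels.

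AP-1 is a family of dimeric transcription factors of the bZIP class, in which a leucine zipper joins the subunits and a basic region grips DNA. JUN proteins pair with one another or with FOS proteins, whereas FOS proteins need a partner, and the dimers read the short palindromes TGANTCA and TGACGTCA. Fos, Fosb, Jun, Junb and Atf3 are classic immediate early genes, transcribed within minutes of growth factors, cytokines, shear stress, ischemia or the dissociation of a tissue, while Jund is known as a more constant subunit. In endothelium AP-1 is known for its part in inflammatory adhesion, matrix breakdown and vessel growth.

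The treatment check came out on the side of its labels, with Neurod1 at 182 FPKM (970 reads) in the NeuroD1 library and 0.664 FPKM (4 reads) in the GFP library. FPKM is the number of fragments per kilobase of exon after scaling for depth, and whole reads were recovered from it. The deposited values are not scaled to equal totals of these reads, for which the NeuroD1 values would have to be multiplied by 0.887. The libraries held 2001426 reads in NeuroD1 and 2011130 reads in GFP, of which 57.4% and 41.9% (NeuroD1) and 52.3% and 37.7% (GFP) lay in the 19 genes above 1000 FPKM and in the single most abundant gene. A protein-coding gene had a median of 20 reads in NeuroD1 and 24 reads in GFP. Receptors for odours, pheromones and taste, which endothelial cells are not known to use, had a median of 1.40 FPKM in NeuroD1 and 1.54 FPKM in GFP, and a 95th percentile of 4.79 FPKM in NeuroD1 and 4.39 FPKM in GFP. Since 1 library stands for each treatment, the differences below carry no replicate error and no p-value. The 95% intervals below cover counting error only, and they take each read as a separate molecule, which is unknown. In bulk RNA fewer cells with a transcript cannot be told apart from less transcript per cell.

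Of the 8 genes, 7 were lower in the NeuroD1 library and 1, Jund, was higher. The median difference in log2(FPKM + 1), NeuroD1 minus GFP, was -0.25 over the 8 genes, against -0.01 over the 14791 protein-coding genes that had 20 reads or more, of which 51.4% were lower in NeuroD1. No member reached the fold threshold, a difference of 1 on that scale in either direction, which 3.84% of protein-coding genes at 1 FPKM or more reached on the lower side and 2.62% on the higher side. Of the 7 members with recovered reads, 3 (Junb, Fosl2 and Jun) had an interval of the FPKM ratio below 1 and 1 (Jund) had an interval above 1. Among those 14791 genes the same intervals lay below 1 in 6.22% and above 1 in 5.93%. A scaling that lowers the NeuroD1 library moves these counts: with equal sums of FPKM, with equal total reads or with equal sums of endothelial markers, intervals lay below 1 for 6 of the 7 (all but Jund) and above 1 for 0, against 16%, 12.7% and 12.4% of protein-coding genes below 1 and 1.7%, 2.48% and 2.58% above. The estimate for Jund stayed above 1 under all 3 scalings. With 99% intervals 0 lay below 1 and 0 above, and with genes above 1000 FPKM left out of the scaling 2 lay below 1, Jun no longer among them. Counting error alone would give at most 2.5% on each side where true levels were equal and each read was a separate molecule. At the deposited scaling the shares, 6.22% below 1 and 5.93% above, exceeded this. It is unknown whether reads stand for separate molecules.

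**Figure D1:**
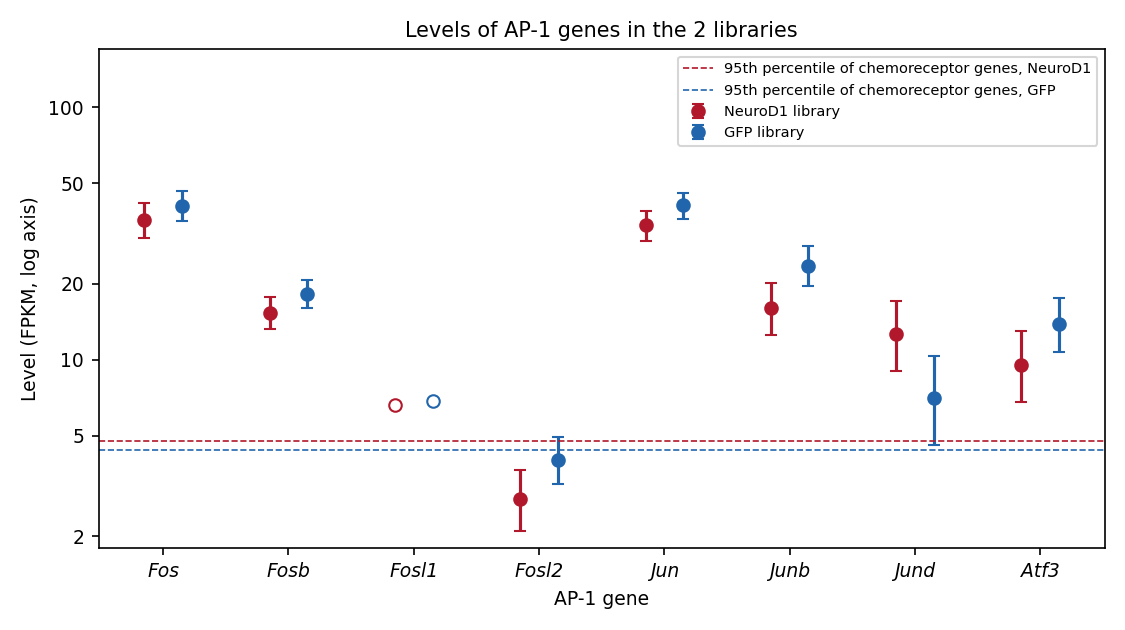
Level of each AP-1 gene in FPKM (log axis) in the NeuroD1 library (red) and the GFP library (blue), with exact Poisson 95% intervals from the reads; open circles mark Fosl1, for which no interval was drawn, and dashed lines mark the 95th percentile of chemoreceptor genes in each library. Only Jund stood higher in NeuroD1 (12.6 FPKM) than in GFP (7.06 FPKM), and only Fosl2 lay below the dashed line of its library in both.

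Proximal promoters are shown for 4 of the genes whose levels carry the comparison: Fos and Jun, the most abundant in both libraries, and Junb and Atf3, which had the largest lower differences. Each line gives the 250 bases before the RefSeq start on GRCm38.p6, read 5′ to 3′ on the gene's strand, from chr12:85473640-85473889 (Fos, plus strand), chr4:95052223-95052472 (Jun, minus strand), chr8:84978749-84978998 (Junb, minus strand) and chr1:191183334-191183583 (Atf3, minus strand). Capitals mark matches, on either strand, to TGACG, the core of the cyclic AMP response element, and to TGACNTCA.
Fos: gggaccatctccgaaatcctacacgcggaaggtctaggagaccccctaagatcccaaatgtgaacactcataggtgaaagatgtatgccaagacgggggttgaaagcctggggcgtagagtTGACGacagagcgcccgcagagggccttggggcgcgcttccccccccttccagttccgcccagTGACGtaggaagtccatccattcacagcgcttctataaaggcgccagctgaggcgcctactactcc
Jun: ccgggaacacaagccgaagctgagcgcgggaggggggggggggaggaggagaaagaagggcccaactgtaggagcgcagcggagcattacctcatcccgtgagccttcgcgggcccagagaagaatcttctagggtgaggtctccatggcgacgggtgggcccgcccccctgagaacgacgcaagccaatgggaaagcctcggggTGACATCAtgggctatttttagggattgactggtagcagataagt
Junb: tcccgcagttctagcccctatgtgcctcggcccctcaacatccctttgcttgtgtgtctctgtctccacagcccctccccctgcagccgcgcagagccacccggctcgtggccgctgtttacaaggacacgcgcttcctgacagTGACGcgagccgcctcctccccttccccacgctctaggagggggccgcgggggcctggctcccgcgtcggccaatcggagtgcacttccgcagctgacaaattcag
Atf3: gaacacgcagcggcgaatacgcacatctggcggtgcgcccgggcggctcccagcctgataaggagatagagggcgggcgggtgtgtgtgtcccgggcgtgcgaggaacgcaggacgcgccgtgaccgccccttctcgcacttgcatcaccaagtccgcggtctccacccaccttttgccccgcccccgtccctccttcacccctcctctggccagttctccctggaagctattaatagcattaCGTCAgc

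The RefSeq table held 7 of the 8 genes, with Fosl1 missing. TGACG was found in 4 of these 7 windows (Fos, Fosb, Junb and Atf3), against 17.7% of 32817 promoters of the same length. Fos had TGACG starting 129 and 66 bases before the start, Fosb 60 bases and Junb 106 bases before it, and in Atf3 the match lay on the opposite strand, from 7 bases before it. Jun held the only match to TGACNTCA, starting 45 bases before its start, a motif found in 7.49% of promoters. TGANTCA (6.75% of promoters), TGACGTCA (1.55%) and the CArG box (1.47%), which binds serum response factor, had no match in the 7 windows. TATAAA, found in 12.4% of promoters, matched in Fos alone, 33 bases before the start. TGACGTCA also counts as TGACG and as TGACNTCA, all motifs were searched on both strands, and the motifs were picked after the sequences had been seen. The windows bear only on the letters they hold. The Jund window lies 1210 bases upstream of the GENCODE gene start and is not shown. That of Fosl2 starts from a site 671 bases from the GENCODE start, and that of Atf3 is an internal start 34706 bases from it.

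Among the FOS subunits, Fos (ENSMUSG00000021250, GRCm38 chromosome 12, 85473890 to 85477273, plus strand) stood at 35.8 FPKM (164 reads) in NeuroD1 and 40.8 FPKM (212 reads) in GFP. Its ratio was 0.876 (interval 0.710 to 1.08), which includes 1. Fosb (ENSMUSG00000003545, chromosome 7, 19302696 to 19310051, minus strand), whose spliced form ΔFosB persists in neurons after repeated stimulation, stood at 15.4 FPKM (187 reads) in NeuroD1 and 18.3 FPKM (252 reads) in GFP. The ratio of Fosb was 0.841 (interval 0.692 to 1.02), so that the 2 classic FOS genes were lower by a like amount and neither interval excluded 1. Gene totals cannot tell the Fosb forms apart.

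Fosl1 and Fosl2 encode FRA-1 and FRA-2, subunits without the strong activation domains of Fos and Fosb. Fosl1 (ENSMUSG00000024912, chromosome 19, 5447547 to 5455946, plus strand) stood at 6.61 FPKM in NeuroD1 and 6.90 FPKM in GFP, the smallest difference of the 8 at -0.05. Its reads were not whole at its GENCODE M21 exon length of 2033 bases. The shortest whole exon length that both values allow is 1707 bases, with 22 reads in NeuroD1 and 26 reads in GFP, and a ratio of 0.958 (interval 0.518 to 1.76). Fosl1 shares 1163 exon bases with Ccdc85b on the opposite strand, which stood at 8.42 FPKM in NeuroD1 and 2.23 FPKM in GFP. The sources used here do not say whether counting used the strand, so reads of the overlapping genes cannot be told apart.

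Fosl2 (ENSMUSG00000029135, chromosome 5, 32135801 to 32157842, plus strand) stood at 2.81 FPKM (53 reads) in NeuroD1 and 4.02 FPKM (86 reads) in GFP, with a ratio of 0.698 (interval 0.486 to 0.994). It was the only member below the 95th percentile of chemoreceptor genes in both libraries. At the chemoreceptor median a gene of its exon length, 9680 bases, would hold 26.5 reads in NeuroD1 and 33.0 reads in GFP. Both comparisons scale by exon length, to which reads primed near the 3′ end are not proportional.

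Among the JUN subunits, Jun (ENSMUSG00000052684, chromosome 4, 95049034 to 95052222, minus strand), the founding member of AP-1, had the most reads, with 212 in NeuroD1 (34.1 FPKM) and 288 in GFP (40.9 FPKM). Its ratio was 0.834 with an interval of 0.695 to 0.999, which reaches almost to 1. Junb (ENSMUSG00000052837, chromosome 8, 84974484 to 84978718, minus strand), known as a weaker activator that can counter Jun in proliferation, stood at 16.0 FPKM (72 reads) in NeuroD1 and 23.6 FPKM (120 reads) in GFP. Junb had the lowest ratio of the 8, at 0.680 (interval 0.5002 to 0.918). It shares 173 exon bases with the last part of Prdx2, a peroxidase gene on the opposite strand, which was higher in NeuroD1, at 7.90 FPKM in NeuroD1 and 4.60 FPKM in GFP (ratio 1.72, interval 1.07 to 2.80). Jun shares 232 exon bases with the antisense gene Junos, at 4.23 FPKM in NeuroD1 and 3.85 FPKM in GFP.

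Jund (ENSMUSG00000071076, chromosome 8, 70698949 to 70700616, plus strand), a single-exon gene for a subunit known to slow proliferation and to guard against oxidative stress, went against the others. It stood at 12.6 FPKM (41 reads) in NeuroD1 and 7.06 FPKM (26 reads) in GFP, a ratio of 1.79 (interval 1.07 to 3.04). With 67 reads over both libraries it had the fewest reads of the 7 genes with recovered reads, and its interval was the widest. The antisense gene Gm11175 covers 877 of its exon bases and was listed at 0 in both libraries.

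Atf3 (ENSMUSG00000026628, chromosome 1, 191170296 to 191218039, minus strand) encodes a stress-induced bZIP protein that pairs with JUN subunits and represses many inflammatory genes. It stood at 9.52 FPKM (40 reads) in NeuroD1 and 13.9 FPKM (66 reads) in GFP. The ratio, 0.686, was close to those of Junb and Fosl2, while its interval of 0.452 to 1.03 included 1 at its lower read number.

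**Figure D2:**
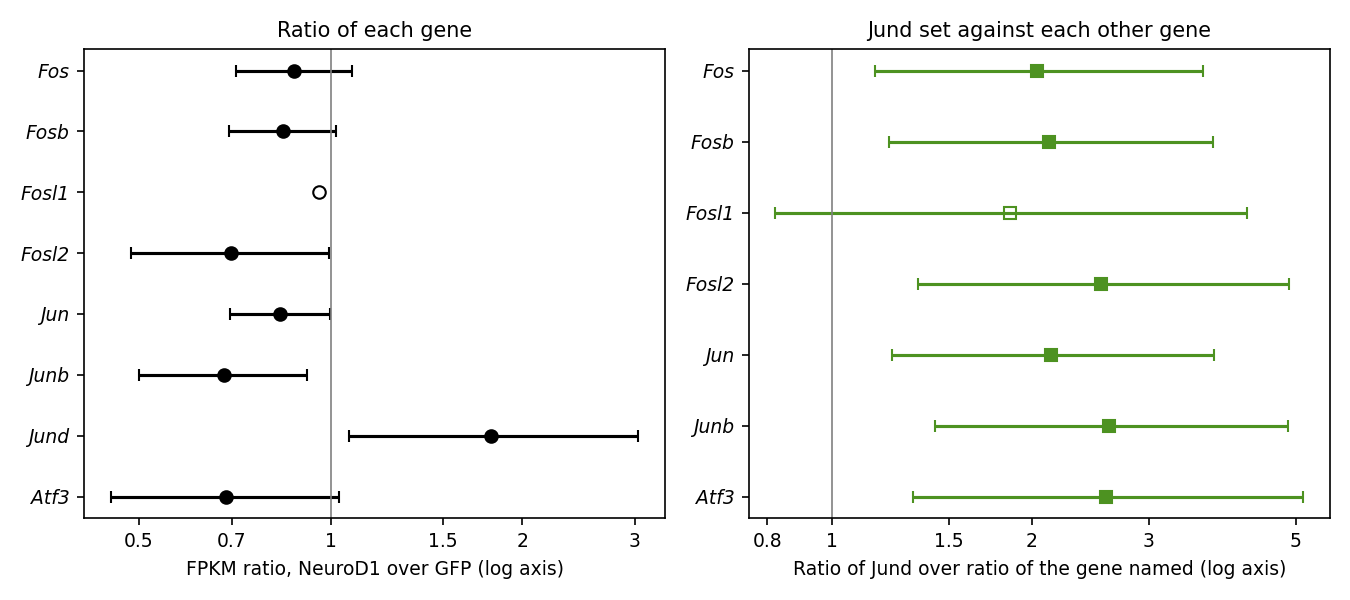
Left, FPKM ratio of NeuroD1 over GFP for each AP-1 gene with exact 95% intervals (log axis; the open circle is Fosl1, drawn with no interval). Right, the ratio of Jund divided by the ratio of the gene named, with exact 95% intervals (the open square uses the inferred reads of Fosl1); 6 of 7 intervals lie above 1.

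The contrast between Jund and the rest does not depend on how the libraries are scaled to each other, since a scaling factor cancels from the ratio of 2 ratios. Jund relative to Junb was 2.62 times as high in NeuroD1 as in GFP (interval 1.43 to 4.87). Relative to Jun it was 2.14 times as high (interval 1.23 to 3.77), and relative to Fos 2.04 times (interval 1.16 to 3.62). The intervals against Fosb, Fosl2 and Atf3 also lay above 1, with estimates of 2.12, 2.55 and 2.59. Against Fosl1, with its inferred reads, the estimate of 1.85 had an interval of 0.823 to 4.23. The plot of ratios shows these 7 comparisons, which share the reads of Jund and were made after Jund had been seen to differ.

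The mix of JUN subunits differed in the same way. Jund made up 12.6% of the JUN reads in NeuroD1 (exact binomial interval 9.21% to 16.7%, 325 reads) and 5.99% in GFP (interval 3.95% to 8.65%, 434 reads). Junb made up 22.2% in NeuroD1 and 27.6% in GFP, and Jun 65.2% in NeuroD1 and 66.4% in GFP, both with overlapping intervals. Per length, the summed FPKM of FOS subunits was 60.5 in NeuroD1 and 70.0 in GFP, and that of JUN subunits 62.7 in NeuroD1 and 71.5 in GFP. The FOS to JUN level ratio was 0.965 in NeuroD1 (interval 0.825 to 1.13) and 0.978 in GFP (interval 0.855 to 1.12), a difference well within counting error. Without Jund it was 1.21 in NeuroD1 and 1.09 in GFP.

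The order of levels, in FPKM, was nearly the same in the libraries. In NeuroD1 it ran Fos, Jun, Junb, Fosb, Jund, Atf3, Fosl1 and Fosl2, and in GFP Jun, Fos, Junb, Fosb, Atf3, Jund, Fosl1 and Fosl2. Fos and Jun did not differ beyond counting error in either library (level ratio of Fos over Jun 1.05 in NeuroD1, interval 0.850 to 1.29, and of Jun over Fos 1.002 in GFP, interval 0.836 to 1.20). In NeuroD1 the neighbours from Junb to Atf3 also had level ratios whose intervals included 1. In GFP Junb stood above Fosb (1.29, interval 1.03 to 1.61), and Atf3 stood above Jund by 1.97 times (interval 1.23 to 3.22). The remaining neighbours in GFP, Fosl1 apart, had intervals above 1 as well. In NeuroD1 Jund over Atf3 was 1.32, with an interval that included 1 (0.835 to 2.10). Reads primed near the 3′ end are not proportional to exon length, so that levels per length are a rough order between genes of unequal length.

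The median difference varied with abundance, so each member was set among genes of its own range of mean FPKM. Protein-coding genes with a mean of 20 to 50 FPKM had a median difference of 0.24, and 10.4% of 135 such genes were lower in NeuroD1. Both Fos (-0.19) and Jun (-0.26) were lower, with only 7 and 4 of the 135 genes below them. At 10 to 20 FPKM, where the median difference was 0.12, only 19 of 468 genes lay below Junb (-0.53) and 21 below Atf3 (-0.50), while 71 lay below Fosb (-0.24). At 5 to 10 FPKM, 111 of 3484 genes lay above Jund (0.76) and 1403 lay below Fosl1 (-0.05), which was thus near the middle of its range. At 2 to 5 FPKM 1437 of 8539 genes lay below Fosl2 (-0.40). Genes nearest to Jun in log2(FPKM + 1) over the 2 libraries were sought among protein-coding genes outside the AP-1 group, with predicted genes left out. The nearest of these were Hspb1, a small heat shock protein (distance 0.12), the chaperone gene Hsp90ab1 (0.13) and Rpl13a-ps1 (0.15). This likeness rests on 2 values each.

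**Figure D3:**
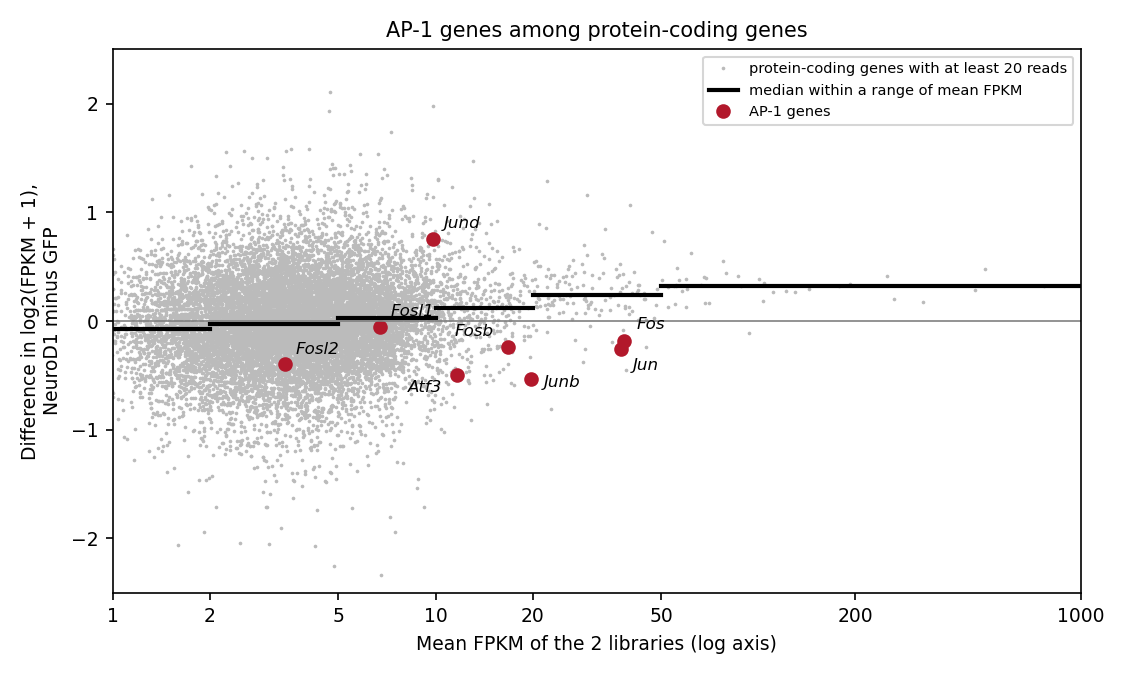
Difference in log2(FPKM + 1), NeuroD1 minus GFP, against the mean FPKM of the libraries (log axis) for 14662 protein-coding genes that had 20 reads or more (grey; 129 more lie outside the axes), with the median of each range of mean FPKM (black) and the AP-1 genes (red). The medians climb to 0.24 at 20 to 50 FPKM, where Fos and Jun lie at -0.19 and -0.26, and to 0.32 at 50 to 1000 FPKM. Of the AP-1 genes, Jund alone lies above its range's median.

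Genes around AP-1 lay on both sides of 0. Among 22 genes listed as dimer partners, all of them other bZIP proteins, 14 were lower and 8 higher in NeuroD1. Their median was -0.06 (0.052 among those at 5 FPKM or more). Batf2 passed the fold threshold, at 7.32 FPKM (36 reads) in NeuroD1 and 3.05 FPKM (17 reads) in GFP (ratio 2.40, interval 1.31 to 4.55). Cebpb, a regulator of the acute phase response and the most abundant of the list, stood at 35.1 FPKM in NeuroD1 and 25.9 FPKM in GFP (ratio 1.36, interval 1.01 to 1.83). In its range of mean FPKM, 20 to 50, 44.4% of protein-coding genes had an interval above 1. Maf, at 1.804 FPKM in NeuroD1 and 0.824 FPKM in GFP (interval 1.14 to 4.39), was the third with an interval above 1. Both values of Maf lay below the 95th percentile of chemoreceptor genes, and that in GFP below their median of 1.54 FPKM. Atf7, a close relative of Atf2, was the only partner with an interval below 1, at 4.48 FPKM in NeuroD1 and 6.14 FPKM in GFP (ratio 0.730, interval 0.559 to 0.949). The values of Atf7 in NeuroD1 and of Batf2 in GFP also lay below that percentile. The lowest differences were those of Batf3 (1.93 FPKM in NeuroD1, 3.97 FPKM in GFP) and Batf (2.55 FPKM in NeuroD1, 4.51 FPKM in GFP), which rest on 20 and 21 reads and had intervals that included 1. Atf4, of the integrated stress response, stood at 12.2 FPKM in NeuroD1 and 13.4 FPKM in GFP, with no recovered reads.

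Upstream of the AP-1 genes lie the MAP kinase cascades and the serum response factor complex. Of 34 such genes, 13 were lower and 21 higher, with a median of 0.12 (0.21 among those at 5 FPKM or more) and none past the fold threshold. Intervals lay above 1 for Map2k2, a kinase of the ERK pathway (9.87 FPKM in NeuroD1, 5.84 FPKM in GFP; ratio 1.69, interval 1.25 to 2.31), for Map2k3 of the p38 pathway (7.43 FPKM in NeuroD1, 4.64 FPKM in GFP; interval 1.01 to 2.56), and for the ribosomal S6 kinase gene Rps6ka3 (14.2 FPKM in NeuroD1, 11.3 FPKM in GFP; interval 1.03 to 1.52). Among protein-coding genes, 7.69% had such an interval at 5 to 10 FPKM, the range of Map2k2 and Map2k3. At 10 to 20 FPKM, the range of Rps6ka3, the share was 19.4%. The interval of Mkl1, a coactivator of serum response factor, lay below 1, at 1.34 FPKM in NeuroD1 and 2.81 FPKM in GFP (ratio 0.477, interval 0.248 to 0.876). Both values of Mkl1 lay below the 95th percentile of chemoreceptor genes, and that in NeuroD1 below their median of 1.40 FPKM. Map2k6, also of the p38 pathway, stood at 7.15 FPKM in NeuroD1 and 4.73 FPKM in GFP, and the JNK gene Mapk9, the most abundant of the list, at 18.0 FPKM in NeuroD1 and 15.6 FPKM in GFP; both intervals included 1.

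Of 6 regulators of AP-1 protein stability, 3 were lower and 3 higher (median 0.05). Only Itch and Gsk3b reached 5 FPKM, and the median of these was 0.27. Gsk3b, a kinase that marks Jun for decay, stood at 15.1 FPKM in NeuroD1 and 11.97 FPKM in GFP (ratio 1.26, interval 1.06 to 1.49). In its range of mean FPKM, 10 to 20, 19.4% of protein-coding genes had an interval above 1. Det1, part of a ubiquitin ligase for Jun, had 7 reads in NeuroD1 and 20 reads in GFP (ratio 0.396, interval 0.142 to 0.976). Its levels, 0.831 FPKM in NeuroD1 and 2.10 FPKM in GFP, lay below the 95th percentile of chemoreceptor genes. That in NeuroD1 lay below their median as well. The ubiquitin ligase genes Itch (7.02 FPKM in NeuroD1, 5.83 FPKM in GFP) and Fbxw7 (2.62 FPKM in NeuroD1, 1.86 FPKM in GFP) had intervals that included 1.

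Known AP-1 target genes were divided as well, with 10 of 21 lower, 11 higher and a median of 0.05 (0.16 among those at 5 FPKM or more). Intervals lay below 1 for the matrix protease Mmp9 (2.32 FPKM in NeuroD1, 5.24 FPKM in GFP; ratio 0.442, interval 0.232 to 0.805), for the cytokine Il6 (2.96 FPKM in NeuroD1, 5.97 FPKM in GFP; interval 0.244 to 0.955) and for the adhesion molecule Icam1 (4.70 FPKM in NeuroD1, 7.79 FPKM in GFP; interval 0.401 to 0.898). All of these lay below the 95th percentile of chemoreceptor genes in NeuroD1 (4.79 FPKM) and above it in GFP (4.39 FPKM). Icam1 was picked out for its interval, and Mmp3 after a look at its values; Mmp3 passed the fold threshold on the lower side with 3 reads in NeuroD1 and 11 reads in GFP. On the higher side Spp1, which encodes osteopontin, passed the threshold at 6.22 FPKM (20 reads) in NeuroD1 and 1.92 FPKM (7 reads) in GFP (ratio 3.24, interval 1.31 to 9.06). Its level in GFP lay below the 95th percentile of chemoreceptor genes. The chemokine Ccl2, the most abundant target by far, stood at 343 FPKM in NeuroD1 and 304 FPKM in GFP (ratio 1.13, interval 1.02 to 1.25), and of 42 protein-coding genes at 50 to 1000 FPKM only 4.76% were lower in NeuroD1. Hmox1, a heme-degrading enzyme of the stress response, at 9.96 FPKM in NeuroD1 and 5.95 FPKM in GFP, and the vasoconstrictor gene Edn1, at 12.7 FPKM in NeuroD1 and 11.4 FPKM in GFP, had intervals that included 1.

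The other immediate early transcription factors had a median near that of the AP-1 genes, at -0.26, with 8 of 11 lower. This list, like the others, was chosen with earlier results of these data known. Egr1 stood at 7.43 FPKM in NeuroD1 and 13.3 FPKM in GFP, Egr2 at 1.81 FPKM in NeuroD1 and 4.40 FPKM in GFP, and these were the only intervals below 1. Egr2 lay below the 95th percentile of chemoreceptor genes in NeuroD1 and almost at it in GFP (4.39 FPKM). Nr4a1, which lacks recovered reads and an interval, stood at 16.2 FPKM in NeuroD1 and 26.7 FPKM in GFP, and Klf2, a flow-responsive factor, at 25.3 FPKM in NeuroD1 and 28.7 FPKM in GFP. Nr4a2 (6.82 FPKM in NeuroD1, 8.36 FPKM in GFP) and Nr4a3 (2.83 FPKM in NeuroD1, 3.78 FPKM in GFP) were lower, with intervals that included 1.

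The list of feedback genes of the early response, also chosen with earlier results known, had a median of -0.24, with 10 of 15 lower. It also holds Ier2, Ier3 and Ier5, genes named for the early response itself. Ier5, which passed the fold threshold at 2.504 FPKM in NeuroD1 and 12.4 FPKM in GFP (ratio 0.201, interval 0.110 to 0.345), and the MAP kinase phosphatase gene Dusp16, at 2.499 FPKM in NeuroD1 and 4.30 FPKM in GFP (ratio 0.582, interval 0.383 to 0.871), had intervals below 1. Dusp16 lay below the 95th percentile of chemoreceptor genes in both libraries, and Ier5 did so in NeuroD1. Dusp2, named after its values were seen, also passed the threshold, on 2 reads in NeuroD1 and 10 reads in GFP. Dusp1, a phosphatase that turns off JNK and p38 and also lacks recovered reads, stood at 18.8 FPKM in NeuroD1 and 26.5 FPKM in GFP, and Ier3 at 41.3 FPKM in NeuroD1 and 48.8 FPKM in GFP. Spry1 (4.23 FPKM in NeuroD1, 2.18 FPKM in GFP) and Spry2 (3.44 FPKM in NeuroD1, 2.17 FPKM in GFP), inhibitors of growth factor signalling, were higher with intervals that included 1.

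Heat shock genes, which answer protein damage, had a median of -0.01 (0.042 among those at 5 FPKM or more), with 5 of 9 lower and 4 higher. Hspa8 stood at 10.6 FPKM in NeuroD1 and 13.6 FPKM in GFP, and Hsph1 at 5.72 FPKM in NeuroD1 and 7.35 FPKM in GFP. The inducible Hspa1b, at 57.1 FPKM in NeuroD1 and 43.6 FPKM in GFP (ratio 1.31, interval 1.11 to 1.55), was the only one with an interval that excluded 1, in a range (50 to 1000 FPKM) where 81.0% of protein-coding genes had an interval above 1. Its near-identical copy Hspa1a stood at 42.0 FPKM in NeuroD1 and 39.4 FPKM in GFP, and reads may be split between the copies. Dnajb1, a co-chaperone gene, stood at 12.3 FPKM in NeuroD1 and 10.6 FPKM in GFP.

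**Figure D4:**
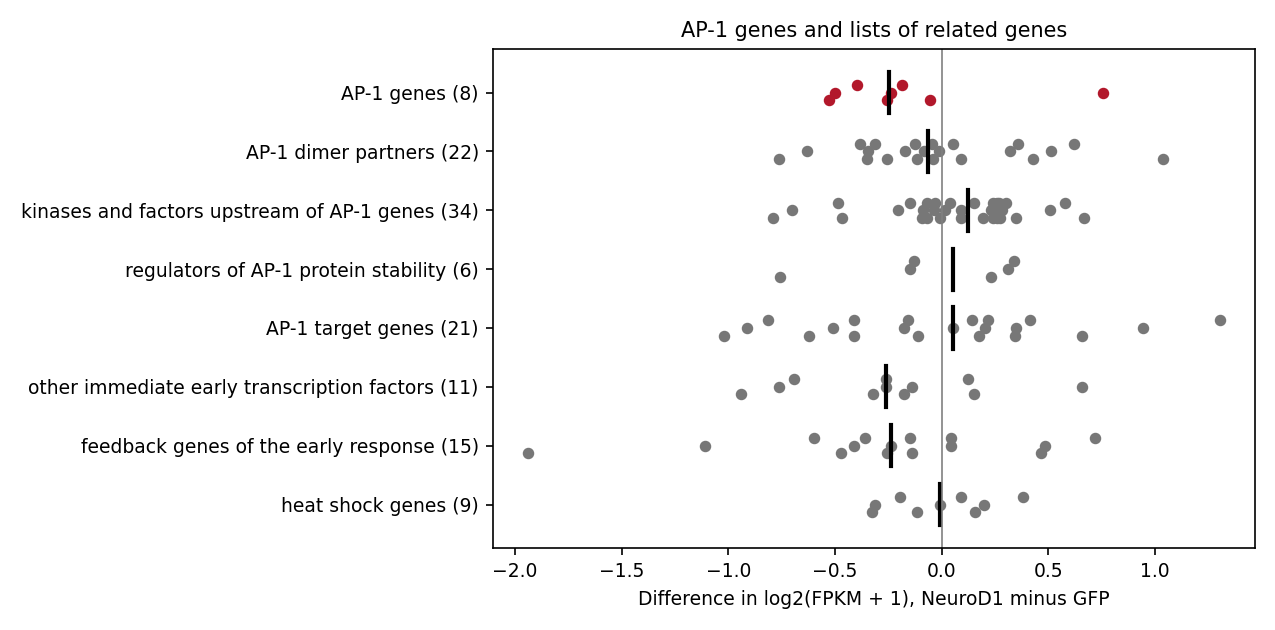
Difference in log2(FPKM + 1), NeuroD1 minus GFP, of each measured gene (dots) in the AP-1 group (red) and in 7 lists of related genes (grey), with the median of each list (black bar) and the number of genes in brackets. The AP-1 genes, the other immediate early factors and the feedback genes have medians of -0.25, -0.26 and -0.24, while the other 5 medians lie from -0.06 to 0.12. Counting only genes at 5 FPKM or more, these medians are -0.24, -0.22 and -0.25, and the other 5 lie from 0.042 to 0.27. The value of 0.27 rests on Itch and Gsk3b alone. Protein-coding genes with a mean of 5 to 50 FPKM had a median of 0.049. Members and lists were chosen with earlier results of these data known, so the medians are not independent of those results.

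Markers of the cells in the isolate also differed between the libraries. All 14 endothelial markers were measured, none at 0, with a summed level of 229 FPKM in NeuroD1 and 204 FPKM in GFP, and 5 had an interval above 1. Intervals above 1 were common among abundant protein-coding genes, at 7.69% for a mean of 5 to 10 FPKM, 19.4% for 10 to 20, 44.4% for 20 to 50 and 81.0% for 50 to 1000 FPKM. All 5 platelet markers were lower, at a sum of 13.8 FPKM in NeuroD1 and 25.02 FPKM in GFP. Of these, Pf4 had 3 reads in NeuroD1 and 9 in GFP, Ppbp 2 and 5, and Gp9 2 and 4. Of 6 erythroid markers 4 were lower and 2 higher (sum 27.2 FPKM in NeuroD1, 41.6 FPKM in GFP), also on few reads, such as 6 and 23 for Hbb-bs. Among protein-coding genes with a mean of 2 to 5 FPKM, 53.6% were lower in NeuroD1 and 6.56% had an interval below 1. Of 9 microglia markers 7 were lower (36.1 FPKM in NeuroD1, 38.1 FPKM in GFP), of 8 neutrophil markers 4 (71.0 FPKM in NeuroD1, 69.5 FPKM in GFP), of 7 measured mural markers 5 (25.2 FPKM in NeuroD1, 27.3 FPKM in GFP) and of 6 astrocyte markers 4 (14.2 FPKM in NeuroD1, 16.8 FPKM in GFP). Neuron markers, with 4 of 10 lower and 6 higher, summed to 61.3 FPKM in NeuroD1 and 51.8 FPKM in GFP. Most of that sum was in Rbfox3, at 31.0 FPKM in NeuroD1 and 26.8 FPKM in GFP (interval 0.996 to 1.35). The median neuron marker stood at 2.34 FPKM in NeuroD1 and 2.41 FPKM in GFP. Oligodendrocyte markers, with 2 of 5 measured lower, summed to 16.5 FPKM in NeuroD1 and 16.6 FPKM in GFP. An interval lay below 1 for 1 marker each of platelet, erythroid, neutrophil, mural, microglia and astrocyte, and above 1 for 1 neuron and 1 astrocyte marker. No marker was at 0 in either library. The part of these cells in the levels of the AP-1 genes was not tested.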

How the data were processed

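The authors deposited 1 table of FPKM values for 53465 Ensembl genes, with 1 column per library. RNA was reverse transcribed with DRUG-seq primers, per the labels' protocols. Per the submitters' processing notes, the GRCm38 build, featureCounts 1.6.3, Bowtie2 2.3.5.1 and DESeq were used; strand and treatment of duplicate reads are not given in the sources used here. FPKM times merged exon length in GENCODE M21 (GRCm38) was divided by the value of 1 read, 513 in NeuroD1 and 453 in GFP. This gave whole reads within 0.02 for 51162 genes (95.7%). The steps were tested on simulated data.

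Differences are log2(FPKM + 1), NeuroD1 minus GFP, which understates the change of low genes. Ratios have exact Clopper-Pearson 95% intervals from the reads, and levels have exact Poisson intervals. Interval calls used protein-coding genes that had 20 reads or more over both libraries as background. Intervals of list genes are given at the deposited scaling only, and a scaling that lowers the NeuroD1 library would lower them. List genes counted as measured at 1 FPKM or more in one library or both. The interval of the FOS to JUN ratio is a log-scale normal approximation to Poisson error. Ratios of 2 ratios have exact conditional intervals. Intervals cover counting error only, and they take each read as a separate molecule, which is unknown. Where reads are copies of the same molecule, the intervals are too narrow.

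Members and lists were chosen with earlier results of these data known. Named were all members, and per list up to 4 genes with at least 20 reads and the largest differences, plus the 2 with the highest mean FPKM; genes whose interval excluded 1 were added after seeing the values. Map2k7 has 2 identifiers, of which the higher one was used. Python 3.11.15, numpy 2.4.6, pandas 2.3.3, scipy 1.17.1 and matplotlib 3.10.9 were used.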

Additional observations from a re-analysis of the deposited data

How the results depend on the processing

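No paired analysis was possible because a single library stands for either treatment, and none could be left out. The direction of all 8 members held in all 64 values under the 8 other pseudocounts, scalings and background subtraction run. No member passed the fold threshold under them. These values reuse the same reads, so that they cannot show how far counting error reaches. Scalings to the same total of recovered reads or the same summed FPKM of endothelial markers, the inferred reads of Fosl1 and the ratio without Jund were chosen after seeing the data. The median of the members, -0.25, was -0.47 with equal sums of FPKM, -0.41 with the same total of reads and -0.40 with the same endothelial sum, settings that put the median of protein-coding genes that had 20 reads or more at -0.19, -0.14 and -0.14. Under each of these 3 scalings 6 of 7 intervals lay below 1 (Jund apart) and 0 above 1, against 16%, 12.7% and 12.4% of protein-coding genes below 1 and 1.7%, 2.48% and 2.58% above. With 99% intervals 0 lay below and 0 above 1. With genes above 1000 FPKM left out of the scaling, 2 lay below 1, without Jun. The FOS to JUN ratio was 1.24 in NeuroD1 and 1.27 in GFP from summed reads (without Fosl1), and 1.21 in NeuroD1 without Jund. Among genes at 5 FPKM or more, where fewer genes are counted, list medians were 0.052 for dimer partners and 0.042 for heat shock genes, both on the other side of 0. They were 0.21 for upstream genes and 0.27 for stability regulators, the latter from Itch and Gsk3b alone. The other immediate early factors had -0.22 and the feedback genes -0.25. Depth limits Jund, with 67 reads in all, most among members with recovered reads; Fosl1 would have fewer by its inferred reads.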
